A study of Homo sapiens with 8 samples.

Results

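The integrated stress response and the unfolded protein response were examined through 35 genes named in the rule for this gene module, each read at its brightest array probe. The 35 genes were split into an ATF4/CHOP arm of 22 genes and an XBP1/ATF6 arm of 13. A probe was found for 34 of them and none for HERPUD1, a membrane protein of endoplasmic reticulum (ER) degradation. Of these, 30 passed the filter for dim probes, 20 of the ATF4/CHOP arm and 10 of the XBP1/ATF6 arm, among 12436 genes tested in all. The serine and folate enzyme gene ALDH1L2, the stress cofactor gene NUPR1, the ER stress sensor gene ERN1 and the ER degradation adaptor gene SEL1L did not pass. Their intensities ran from 98.3 to 125 over the 8 arrays, and they are counted as not measured.

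The cells were H1, a human embryonic stem cell line, grown free of feeders on Matrigel in mTeSR medium and transduced with lentivirus and polybrene. Of the 8 samples, 2 received the EF1a-control virus, 2 OE-NANOG, 2 OE-OCT4 and 2 OE-SOX2, and each was read on its own Illumina array. NANOG, OCT4 (gene POU5F1) and SOX2 are the transcription factors at the centre of pluripotency, and the design sets the transcriptome of each overexpressing group beside the control vector. All groups share the cell line, the medium and exposure to virus, so no untransduced cells enter any comparison. The labels give no time between transduction and RNA, and none says whether replicates were separate cultures. The p-values therefore reflect how far arrays of the same group lay apart, a spread that can be purely technical. It was pooled over all groups and is not that of the compared groups alone.

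In the integrated stress response, kinases that sense ER stress, amino acid lack, viral RNA or haem lack phosphorylate the translation factor eIF2 alpha. Most translation then falls while translation of ATF4 rises, and ATF4 with its C/EBP partners turns on genes of amino acid uptake, serine and asparagine synthesis, tRNA charging and redox defence, followed by CHOP (gene DDIT3), TRIB3 and the feedback subunit GADD34 (gene PPP1R15A). The unfolded protein response of the ER has a branch that runs through the kinase PERK (gene EIF2AK3) into this same pathway, and further branches through IRE1 (gene ERN1), which splices XBP1 mRNA, and through ATF6, which raise chaperones, disulfide enzymes and ER degradation factors. ATF4 protein, XBP1 splicing and ATF6 cleavage are not read by these probes, which measure RNA levels only.

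Replicate arrays of a group correlated at 0.969 to 0.996 over the 12436 genes, lowest in the SOX2 group. The median absolute difference between the SOX2 replicates was 0.38 log2 over the ATF4/CHOP arm, 0.21 over the XBP1/ATF6 arm and 0.21 over all genes. Probes for the 3 transduced genes did not read higher on the arrays of their own vector: the log2 change from control was -0.22 and -0.29 for NANOG, -0.01 and -0.95 for POU5F1 and -0.77 and -1.15 for SOX2. Whether these probes read the transcripts made from the vectors was not tested, so the values do not show whether overexpression took place, and the groups are called by their labels. Of 13 pluripotency markers, 12 had a probe, and 11 or 12 lay above the filter intensity on both arrays of every group. The summed intensity of this list was 32163 to 32732 in control and 29005 to 29780 with NANOG. It was 29160 to 30240 with OCT4 and 25813 to 28750 with SOX2. With SOX2 3 of the 12 fell, DNMT3B (-1.33), ZFP42 (-0.72) and SALL4 (-0.58), where 5.01% of all genes did. With NANOG 1 of the 12 fell, PODXL (-1.03, adjusted p = 0.00762), where 0.885% of all genes did. A list of 10 neural markers, of which 9 had a probe, summed to 9605 to 9916 with SOX2 against 3972 to 5488 in the other groups. SOX21 alone had a mean of 4718 with SOX2 against 861 in control. Of the 7 measured, 4 lay above control with SOX2 and 3 below, SOX3 (-0.45), OTX2 (-0.23) and DCX (-0.19), none of the 3 called. Of that list SOX21 (log2 change from control 2.54, adjusted p = 0.00139) and FABP7 (1.64, adjusted p = 0.000466) rose with SOX2, SOX21 fell with NANOG (-2.19, adjusted p = 0.00462), and the defining markers PAX6 and SOX1 stayed under the filter intensity in every group. Fibroblast markers summed to 2734 to 3489 with SOX2, 3354 to 3784 in control, 4222 to 4366 with NANOG and 4008 to 4309 with OCT4, with LUM, POSTN and FAP under the filter intensity in every group. With NANOG 1 of the 6 measured genes lay above control, THY1 (mean 2611 against 1392). The other 5 lay below, among them COL1A1 (430 against 888). With OCT4 4 lay above, among them THY1 (2117), and 2 below, among them COL1A1 (553). None of these was called with NANOG or OCT4. With SOX2 all 6 lay below control, at -0.84 to -0.01. Of these 1 was called, COL1A2 (-0.84, adjusted p = 0.031 in limma's test), where 5.01% of all genes were lower. Blood and endothelial markers summed to 1313 to 1360 with SOX2, 1332 to 1422 in control, 1210 to 1253 with NANOG and 1219 to 1306 with OCT4, with PTPRC, PECAM1, CDH5 and LYZ under it in every group. The part of these markers in the results was not tested, and in bulk RNA fewer cells of a type cannot be told apart from less RNA per cell.

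The arms also differ in the DNA before their start sites, which the rule did not use. Members and motifs were both chosen as parts of these pathways, so the matches describe the arms and are not separate support. RefSeq promoter windows on GRCh38.p14, from 250 bases before to 50 bases after each start, were matched for 31 of the 35 members, 18 of the ATF4/CHOP arm and all 13 of the XBP1/ATF6 arm, with SHMT2, PSPH, ALDH1L2 and NUPR1 unmatched. Both strands were searched, and a gene counted when any of its windows held the letters. The composite element of ATF4 with a C/EBP partner, searched as TGATGNAAN, was found in 5 of 18 ATF4/CHOP genes (ATF3, CEBPG, ASNS, CHAC1 and JDP2), in 1 of 13 XBP1/ATF6 genes (HERPUD1), and in 4.45% of 27305 genes with a window. The ER stress response element read by ATF6 and XBP1 with the factor NF-Y, searched as CCAAT and CCACG with 9 bases of any kind between them, was found in 0 of 18 and 5 of 13 (XBP1, CRELD2, PDIA6, CALR and ERO1B) against 0.0916% of genes. Its second form, ATTGG and CCACG with 1 base between them, was found in 0 of 18 and 2 of 13 (HERPUD1 and SDF2L1) against 0.0696% of genes. Its end CCACG alone, which both of these forms contain, was found in 10 of 18 and 11 of 13 against 42.1% of genes. The amino acid response form of the composite element, TGATGCAAT, which fixes the open letters of the first search, and the unfolded protein response element core, TGACGTGG, were in no member's window, against 0.293% and 0.927% of genes. A match is a run of letters and not a measured binding site, and an absent match speaks only of these letters in these windows.

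The stretches printed here show the composite element in 3 genes that rose with SOX2 and the ER stress element in 4 genes of the arm that did not, and they were picked after the matches were known. Capitals mark the match, in the gene's own direction and 5′ to 3′. ASNS lies on the minus strand at chr7:97872428-97872516 with the match starting 68 bases before the start, CHAC1 on the plus strand at chr15:40953221-40953309 with the reversed match at 210, and ATF3 on the plus strand at chr1:212565176-212565264 with the match at 191. XBP1 lies on the minus strand at chr22:28800570-28800661 with the match at 52. CRELD2 (chr22:49918514-49918612, match at 80), CALR (chr19:12938359-12938442, match at 225) and SDF2L1 (chr22:21642074-21642164, second form, match at 188) lie on the plus strand and hold it reversed.
ASNS: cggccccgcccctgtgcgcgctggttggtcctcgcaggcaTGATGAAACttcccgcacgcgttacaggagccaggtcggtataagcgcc
CHAC1: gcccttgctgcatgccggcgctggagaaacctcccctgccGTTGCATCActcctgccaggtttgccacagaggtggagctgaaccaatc
ATF3: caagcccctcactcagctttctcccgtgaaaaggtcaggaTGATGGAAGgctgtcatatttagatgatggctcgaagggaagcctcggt
XBP1: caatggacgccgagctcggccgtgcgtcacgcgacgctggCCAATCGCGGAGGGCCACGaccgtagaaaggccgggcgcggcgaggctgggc
CRELD2: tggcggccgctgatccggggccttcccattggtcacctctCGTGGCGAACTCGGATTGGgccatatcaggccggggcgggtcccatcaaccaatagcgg
CALR: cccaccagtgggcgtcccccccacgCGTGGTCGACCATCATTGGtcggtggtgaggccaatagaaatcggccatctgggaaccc
SDF2L1: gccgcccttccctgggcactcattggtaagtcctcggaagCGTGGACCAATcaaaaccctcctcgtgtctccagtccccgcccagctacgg

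In cells labelled SOX2 the ATF4/CHOP arm rose and the XBP1/ATF6 arm gave no call. Of the 20 measured ATF4/CHOP genes, 15 rose against control and 0 fell, with a median log2 change of 1.08, while of all genes tested 6.1% rose, 5.01% fell, 11.1% changed in either direction and the median was 0. All 20 lay above zero, and TRIB3, DDIT3, ATF3, STC2, CEBPB and PPP1R15A had the largest rises. CHAC1, counted here and in the counts below, would not have passed the filter for dim probes without the SOX2 arrays. Its call therefore carries no weight of its own. Of the 10 measured XBP1/ATF6 genes, 0 passed in limma's test, 4 had an unadjusted p under 0.05 and the median log2 change was 0.07. Such an unadjusted p was found for 3314 of all 12436 genes. Called means an adjusted p under 0.05 in the limma fit over all genes, and changes are on the log2 scale of background-corrected intensity with an offset of 50, which understates dim genes.

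The separation between arrays showed the same split. Both SOX2 arrays lay above all 6 other arrays for 19 of the 20 ATF4/CHOP genes, all but ATF5, and for 1 of the 10 XBP1/ATF6 genes (XBP1 itself), against 13.6% of all genes. For SDF2L1 both lay below all 6 others, against 12.1% of all genes. The SOX2 group had the highest mean of the 4 groups for 20 of 20 ATF4/CHOP genes, where 33.7% of all genes had it, and the NANOG group the lowest mean for 15 of 20, where 30.9% of all genes had it. The NANOG group had the highest mean for 8 of 10 XBP1/ATF6 genes, where 25.2% of all genes had it.

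The median of an arm on each array, taken relative to each gene's control mean, places the 4 groups. For the ATF4/CHOP arm it was -0.10 and 0.10 on the control arrays, -0.20 on each NANOG array, 0.17 and 0.31 on the OCT4 arrays and 1.01 and 1.04 on the SOX2 arrays. The SOX2 arrays stood apart from the rest, and the distance between control and either other vector was of the size of the gap between the control arrays themselves. The median of control replicate 1 minus replicate 2 was -0.20 over the arm and 0.02 over all genes. In the OCT4 group it was -0.30 over the arm and -0.01 over all genes. Over the arm it was only -0.01 with NANOG and -0.03 with SOX2, so such a gap was seen in control and OCT4 alone. For the XBP1/ATF6 arm the medians were -0.02 and 0.02 in control, 0.32 and 0.37 with NANOG, 0.05 and 0.14 with OCT4 and 0.08 and 0.09 with SOX2. Here the NANOG arrays were the highest. The same median over all genes tested stayed between -0.02 and 0.01 on every array.

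**Figure D1:**
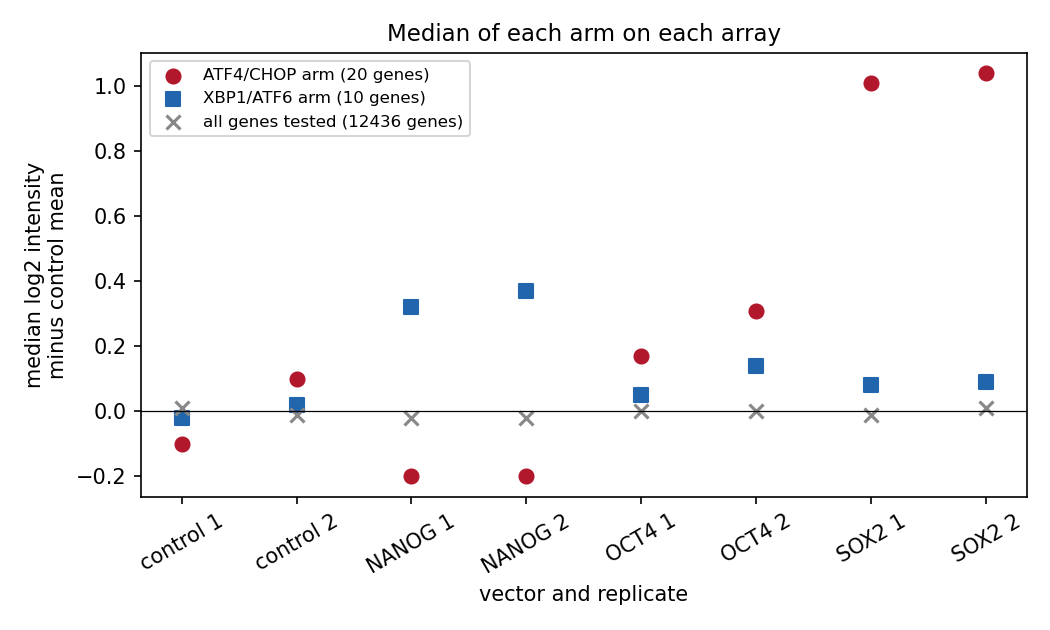
Each point is the median, over the measured genes of an arm or over all 12436 genes tested, of log2 intensity minus the gene's control mean on 1 array, with the 8 arrays along the horizontal axis. The ATF4/CHOP arm (circles) sits at 1.01 and 1.04 on the SOX2 arrays and at -0.20 on the NANOG arrays, and the XBP1/ATF6 arm (squares) is highest on the NANOG arrays at 0.32 and 0.37.

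Among the transcription factors of the ATF4/CHOP arm, 5 of the 7 measured rose with SOX2. DDIT3 encodes CHOP, the C/EBP family factor of prolonged stress. It read 178 and 173 in control, 169 and 173 with NANOG, 227 and 229 with OCT4 and 621 and 810 with SOX2. The SOX2 arrays stood far above the rest, the OCT4 arrays lay next, and NANOG lay at the control level. DDIT3 rose 5.01-fold with SOX2 (log2 2.32, SE 0.14, adjusted p = 0.000238), and its log2 change with OCT4 was 0.48 (adjusted p = 0.365).

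ATF3, an early stress factor of the ATF/CREB family, read 238 and 296 in control, 210 and 190 with NANOG, 341 and 405 with OCT4 and 705 and 1041 with SOX2. The 4 groups did not overlap, in the order NANOG, control, OCT4 and SOX2. It rose 3.64-fold with SOX2 (log2 1.87, SE 0.21, adjusted p = 0.00206), while -0.50 with NANOG (adjusted p = 0.285) and 0.56 with OCT4 (adjusted p = 0.568) did not pass. Of its 3 probes only this brightest one lay above the filter intensity. CEBPB, a C/EBP partner of ATF4, read 742 and 828 in control, 756 and 795 with NANOG, 893 and 1146 with OCT4 and 2243 and 2339 with SOX2. Control and NANOG overlapped, and SOX2 stood apart at 3.03-fold over control (log2 1.60, SE 0.14, adjusted p = 0.000819).

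ATF5, a relative of ATF4 that is likewise controlled in translation, read 497 and 558 in control, 488 and 476 with NANOG, 725 and 1035 with OCT4 and 1648 and 1029 with SOX2. The OCT4 and SOX2 arrays overlapped for this gene, unlike any other measured member of the arm. Its rise with SOX2 was 2.60-fold (log2 1.38, SE 0.24, adjusted p = 0.0114), and it was not called without control replicate 1 (largest adjusted p with an array left out 0.0909). CEBPG, the C/EBP partner that binds composite elements with ATF4, read 534 and 498 in control, 514 and 517 with NANOG, 579 and 549 with OCT4 and 866 and 825 with SOX2. The SOX2 arrays were above the rest by a narrow but even margin, and the rise was 1.70-fold (log2 0.76, SE 0.11, adjusted p = 0.0049).

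ATF4 mRNA itself read 3127 and 4724 in control, 2890 and 2862 with NANOG, 4327 and 4683 with OCT4 and 5399 and 5951 with SOX2. The control arrays lay wide apart and enclosed those of OCT4, NANOG lay under them, and both SOX2 arrays lay above all others. The log2 change with SOX2 was 0.57 (SE 0.18, adjusted p = 0.089), which did not pass, and it passed without control replicate 2 (0.87, adjusted p = 0.0183) or without SOX2 replicate 1 (0.64, adjusted p = 0.0493). The other ATF4 probes past the filter gave 0.62 and 0.26, also not called. JDP2, a repressor of the same dimer family, ran from 130 to 160 over all 8 arrays, with a log2 change of 0.20 (adjusted p = 0.32).

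The kinase PERK (EIF2AK3), which begins the ER branch of the pathway, was dim. It read 118 and 119 in control, 129 and 124 with NANOG, 137 and 136 with OCT4 and 142 and 155 with SOX2. Control lay under the filter intensity of 123.66 on both arrays, so the change with SOX2 is a bound, at least 1.3-fold (adjusted p = 0.0336). That call was lost with 7 of the 8 arrays left out in turn, all but SOX2 replicate 1, at an adjusted p of up to 0.156.

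All 5 brakes and effectors of the arm rose with SOX2. TRIB3, a pseudokinase that CHOP and ATF4 induce and that restrains both AKT and ATF4, read 249 and 292 in control, 327 and 295 with NANOG, 470 and 620 with OCT4 and 2451 and 1673 with SOX2. The groups lay in the order control, NANOG, OCT4 and SOX2 without overlap. The SOX2 rise was 8.73-fold (log2 3.13, SE 0.22, 95% interval 2.63 to 3.62, adjusted p = 0.000267). With OCT4 the log2 change was 1.13 (SE 0.22, adjusted p = 0.109), which passed only without SOX2 replicate 1 (adjusted p = 0.013) or SOX2 replicate 2 (adjusted p = 0.0136) among the left-out arrays.

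PPP1R15A encodes GADD34, which directs a phosphatase back to eIF2 alpha and so ends the response. It read 525 and 591 in control, 577 and 562 with NANOG, 695 and 779 with OCT4 and 1817 and 1303 with SOX2, with NANOG inside the control range and SOX2 far above. The rise with SOX2 was 2.91-fold (log2 1.54, SE 0.17, adjusted p = 0.00183). STC2, a secreted glycoprotein of ER and calcium stress, read 280 and 401 in control, 288 and 279 with NANOG, 387 and 385 with OCT4 and 942 and 1062 with SOX2. The control arrays spanned those of OCT4, and SOX2 was 3.28-fold over control (log2 1.71, SE 0.18, adjusted p = 0.00154).

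CHAC1, an enzyme that degrades glutathione, read 122 and 115 in control, 98.4 and 102 with NANOG, 115 and 136 with OCT4 and 188 and 228 with SOX2. Only the SOX2 arrays and 1 OCT4 array exceeded the filter intensity, so the rise is given as at least 2.02-fold (adjusted p = 0.0057). SESN2, a leucine sensor that restrains mTORC1, read 144 and 132 in control, 128 and 138 with NANOG, 146 and 134 with OCT4 and 189 and 305 with SOX2. The SOX2 arrays were the highest but lay wide apart. The rise of 2.06-fold (log2 1.04, SE 0.24, adjusted p = 0.0303) was lost without either control, NANOG or OCT4 array, at an adjusted p of up to 0.131.

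**Figure D2:**
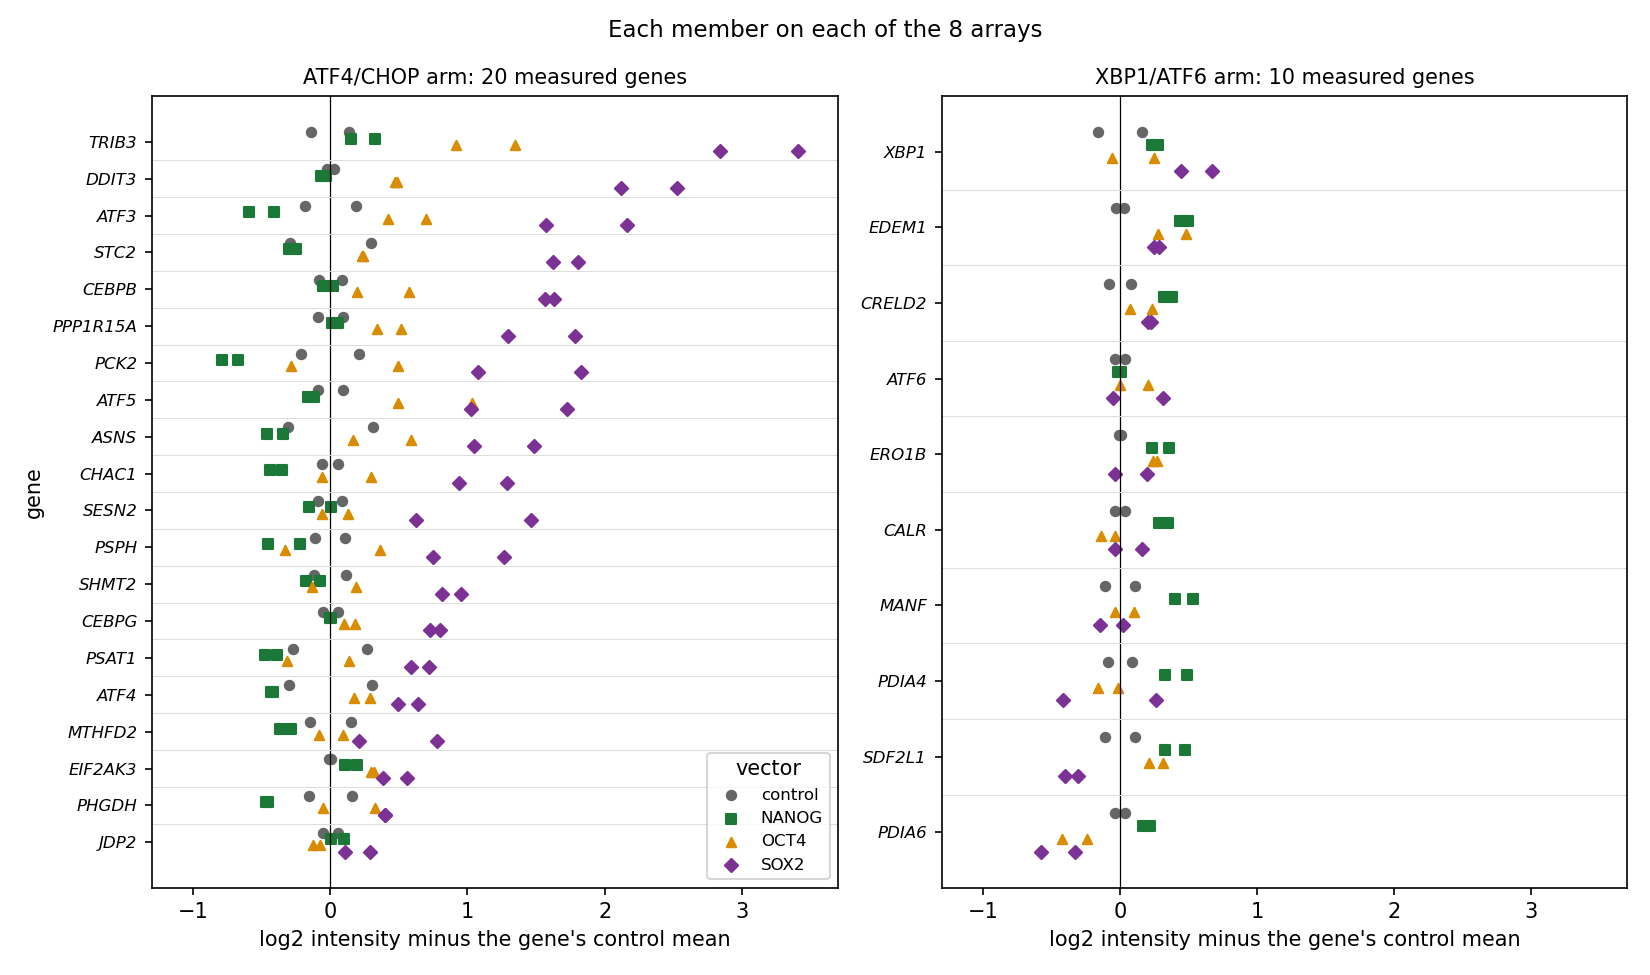
Each symbol is 1 array, plotted as log2 intensity minus the gene's control mean, for the 20 measured genes of the ATF4/CHOP arm (left) and the 10 of the XBP1/ATF6 arm (right), ordered by change with SOX2. SOX2 arrays (diamonds) lie to the right of all others for 19 of 20 genes on the left, and NANOG arrays (squares) lie to the right of both control arrays for 9 of 10 genes on the right.

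Among the enzymes of amino acid and folate metabolism, 4 of 7 measured rose with SOX2 and all 7 lay above zero, with a median log2 change of 0.89. ASNS, which makes asparagine, read 1931 and 2951 in control, 1883 and 1746 with NANOG, 2678 and 3574 with OCT4 and 6600 and 4884 with SOX2. OCT4 overlapped control, NANOG lay under both control arrays, and SOX2 lay above every other array. The rise was 2.40-fold (log2 1.27, SE 0.24, adjusted p = 0.0144), and the other ASNS probe gave 1.22 (adjusted p = 0.0171 with every probe tested). PCK2, the mitochondrial enzyme that turns oxaloacetate into phosphoenolpyruvate, read 484 and 635 in control, 339 and 363 with NANOG, 461 and 762 with OCT4 and 1124 and 1854 with SOX2. NANOG lay under and SOX2 above all arrays of the other groups. It rose 2.74-fold with SOX2 (log2 1.45, SE 0.30, adjusted p = 0.0209). Its other probes gave 1.15 (adjusted p = 0.00845) and 0.43 (adjusted p = 0.176).

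PSPH, which completes serine synthesis, read 426 and 488 in control, 345 and 397 with NANOG, 372 and 573 with OCT4 and 1037 and 740 with SOX2. OCT4 spanned control, and SOX2 stood above both. The rise was 2.01-fold (log2 1.01, SE 0.25, adjusted p = 0.0354), and the other PSPH probe did not pass (0.44, adjusted p = 0.105). SHMT2, which moves the serine carbon onto folate in mitochondria, read 2138 and 2499 in control, 2196 and 2052 with NANOG, 2112 and 2629 with OCT4 and 4038 and 4443 with SOX2. Control, NANOG and OCT4 overlapped, and SOX2 was 1.85-fold over control (log2 0.89, SE 0.15, adjusted p = 0.00875). Without control replicate 1 the calls of ASNS, PCK2, PSPH and SHMT2 were all lost, those of PCK2 and PSPH also without either NANOG array and that of PSPH without control replicate 2, at an adjusted p of up to 0.198.

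The other 3 enzymes did not pass. PSAT1, the transaminase of serine synthesis, was at 0.65 (adjusted p = 0.0781), MTHFD2, a mitochondrial folate enzyme, at 0.49 (adjusted p = 0.147) and PHGDH, the enzyme that commits glucose carbon to serine, at 0.40 (adjusted p = 0.145). PHGDH read 7154 and 8871 in control, 5770 and 5829 with NANOG, 7679 and 9954 with OCT4 and 10505 on each SOX2 array. Its NANOG arrays were the lowest and its SOX2 arrays the highest of the 8. PSAT1 passed without control replicate 2 (0.92, adjusted p = 0.0443) and MTHFD2 without SOX2 replicate 2 (0.78, adjusted p = 0.0144).

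Of the 15 rises with SOX2, those of TRIB3, DDIT3, ATF3, CEBPB, CHAC1, STC2 and PPP1R15A, 7 in all, passed under every alternative setting that could be run and with any of the 8 arrays left out. CHAC1 lay above the filter intensity on only 3 arrays, both SOX2 arrays among them, so the filter on all 8 arrays left it untested. It was tested only because it was high with SOX2, so its place among the 7 carries no weight. CEBPG was lost only when the fit held just the 2 groups compared (adjusted p = 0.0769).

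**Figure D3:**
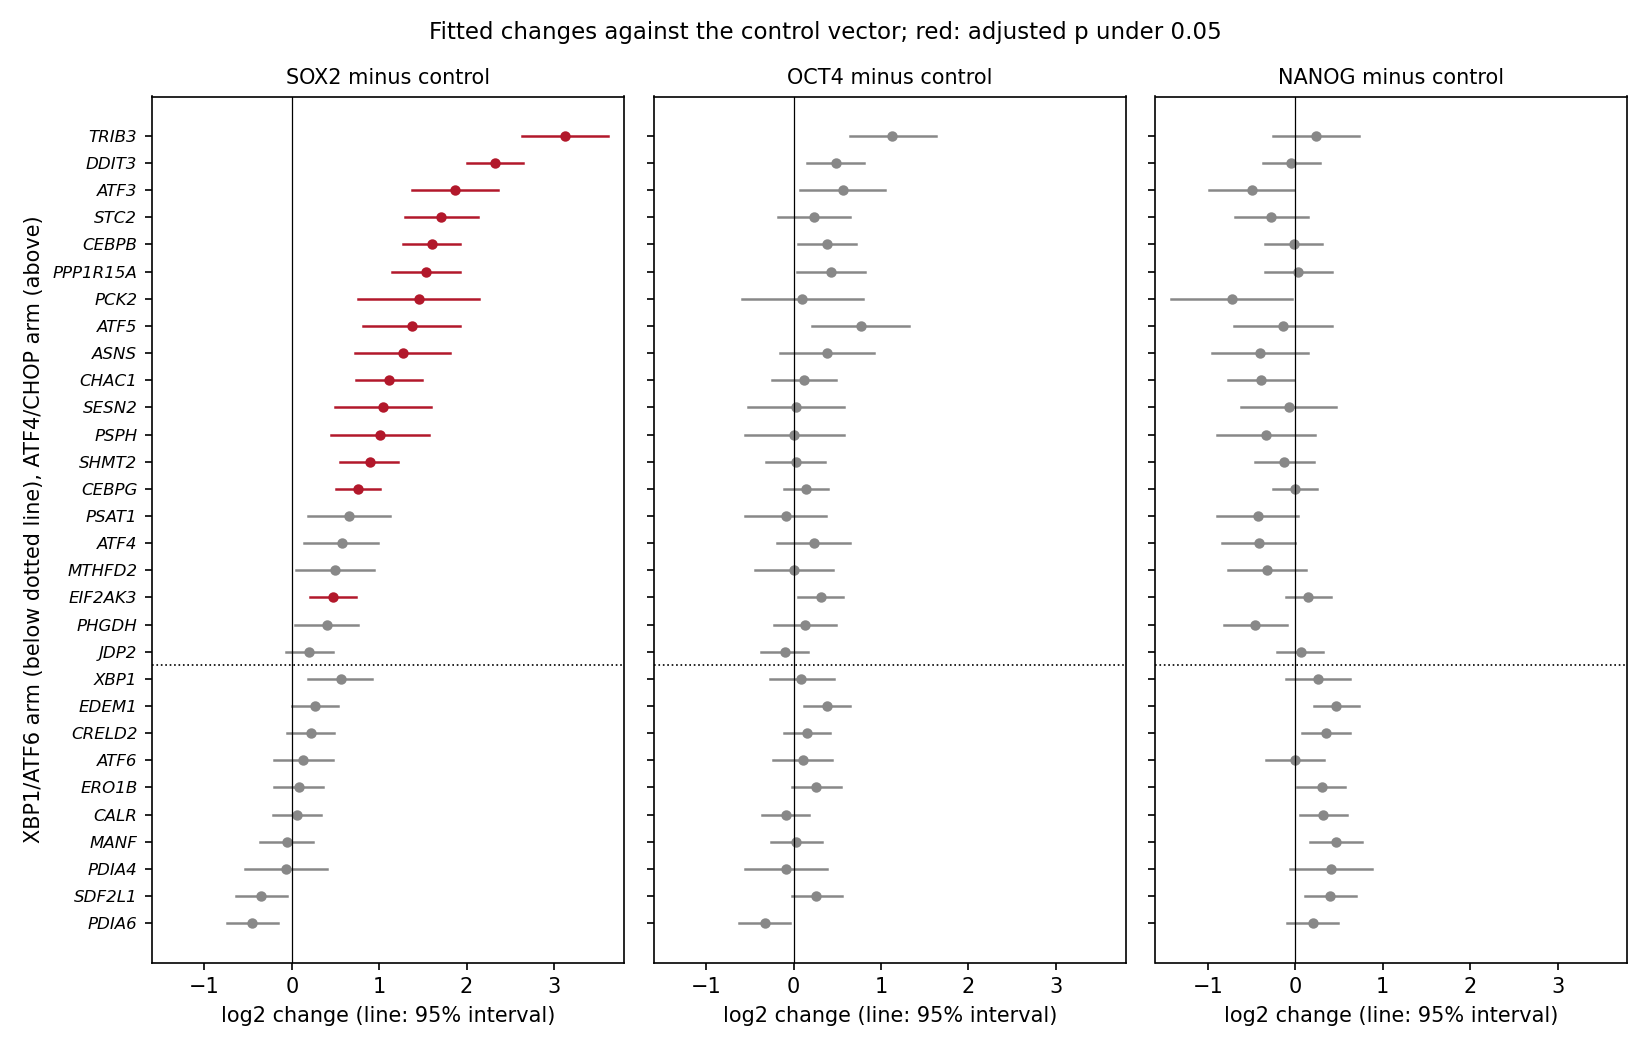
Points are fitted log2 changes against control with 95% intervals for the 30 measured members, for SOX2, OCT4 and NANOG in turn, red where the adjusted p is under 0.05. All 15 red points belong to SOX2 and to the ATF4/CHOP arm, and they run from 0.47 for EIF2AK3 to 3.13 for TRIB3.

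In the XBP1/ATF6 arm, no measured gene passed against control under any vector. XBP1, the transcription factor that IRE1 activates by splicing, read 1693 and 2108 in control, 2283 and 2218 with NANOG, 1814 and 2236 with OCT4 and 2555 and 2987 with SOX2. The SOX2 arrays were the highest, NANOG lay above control, and OCT4 overlapped both. The log2 change of 0.56 (SE 0.16, 95% interval 0.19 to 0.92, adjusted p = 0.0599) passed without SOX2 replicate 1 (0.67, adjusted p = 0.0184), and the other XBP1 probe gave 0.42 (adjusted p = 0.0951). ATF6, the other factor of the arm, ran from 326 to 409 over the 8 arrays and its groups overlapped in every comparison.

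SDF2L1, a cofactor of the chaperone BiP, went the other way. It read 882 and 1019 in control, 1178 and 1301 with NANOG, 1171 and 1089 with OCT4 and 776 and 730 with SOX2. The SOX2 arrays were the lowest of the 8, and NANOG and OCT4 lay above control. The change with SOX2 was -0.35 against control (adjusted p = 0.115). PDIA6, a disulfide isomerase, read 1266 and 1329 in control, 1504 and 1455 with NANOG, 1106 and 980 with OCT4 and 1042 and 885 with SOX2. NANOG lay above control, and OCT4 and SOX2 overlapped below it. Its log2 change with SOX2 was -0.45 (SE 0.13, adjusted p = 0.0585), and -0.58 without SOX2 replicate 1 (adjusted p = 0.0105).

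With NANOG the XBP1/ATF6 arm lay above control as a group without a call. Both NANOG arrays lay above both control arrays for 9 of the 10 genes, where 25.7% of all genes did, and the median log2 change was 0.34, where that of all genes was -0.02. In limma's test 0 of the 10 passed and 6 had an unadjusted p under 0.05, where 2093 of all 12436 genes had one. Of all genes 3.63% were called, 2.74% higher and 0.885% lower. EDEM1, which guides misfolded glycoproteins to degradation, read 182 and 187 in control, 243 and 235 with NANOG, 241 and 215 with OCT4 and 216 and 211 with SOX2. Every array with a factor vector lay above both control arrays, and the log2 change with NANOG was 0.47 (SE 0.12, adjusted p = 0.069). MANF, a secreted ER stress factor, read 2637 and 2278 in control, 3219 and 3522 with NANOG, 2629 and 2391 with OCT4 and 2218 and 2493 with SOX2. NANOG stood above the other 6 arrays, which overlapped, at 0.47 (SE 0.13, adjusted p = 0.105). EDEM1 and MANF passed without either SOX2 array (adjusted p of 0.029 and 0.0291 for EDEM1, 0.0396 and 0.0397 for MANF).

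CALR, the ER lectin calreticulin, read 634 and 665 in control, 783 and 818 with NANOG, 634 and 593 with OCT4 and 633 and 720 with SOX2. CRELD2, a secreted ER stress factor, read 735 and 663 in control, 862 and 898 with NANOG, 815 and 731 with OCT4 and 798 and 811 with SOX2. NANOG was the highest group for both, at log2 changes of 0.32 (adjusted p = 0.209) and 0.35 (adjusted p = 0.167). The disulfide isomerase gene PDIA4 (141 to 227 over the arrays, 0.41 with NANOG, adjusted p = 0.375) and the oxidase gene ERO1B (112 to 135, under the filter intensity in control) showed the same order of control and NANOG.

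The ATF4/CHOP arm lay on the other side of control with NANOG. In limma's test 0 of 20 passed and 5 had an unadjusted p under 0.05 (CHAC1, ATF4, PHGDH, ATF3 and PCK2, all below control), where 2093 of all 12436 genes had one. Of the 20, 15 lay below zero and the median was -0.21. Both NANOG arrays lay below both control arrays for 11 of the 20, where 29.7% of all genes did. CHAC1 is in each of these counts, though it lay under the filter intensity on every control and NANOG array. Its difference there carries no weight. The lowest were PCK2 at -0.73 (SE 0.30, adjusted p = 0.267), ATF3 at -0.50 (adjusted p = 0.285) and PHGDH at -0.46 (adjusted p = 0.176). The median was -0.08 without control replicate 2. ATF4 passed without control replicate 1 (-0.72, adjusted p = 0.0472). TRIB3, at 0.24, and EIF2AK3 were the members whose NANOG arrays both lay above control.

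With OCT4 no member passed against control, where 0.281% of all genes did, 0.217% higher and 0.0643% lower. In limma's test 7 of the 20 ATF4/CHOP genes and 2 of the 10 XBP1/ATF6 genes had an unadjusted p under 0.05, where 945 of all 12436 genes had one. The medians were 0.19 and 0.10, and 18 of 20 and 7 of 10 lay above zero. TRIB3 at 1.13, ATF5 at 0.77 (adjusted p = 0.406), ATF3 at 0.56 and DDIT3 at 0.48 were the highest. The ATF4/CHOP median was 0.31 without control replicate 2 and also without OCT4 replicate 1.

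The vectors were also compared with each other. These comparisons share arrays with those above, so their values are given beside them and not as separate support. Against NANOG, 18 of the 20 ATF4/CHOP genes were higher with SOX2 and 0 lower, with a median of 1.43, where 17.7% of all genes were called and 8.93% were higher. ATF4, PSAT1, PHGDH and MTHFD2, which did not pass against control, were among the 18. ATF4 was 1.99-fold higher than with NANOG (log2 0.99, SE 0.18, adjusted p = 0.00824), and EIF2AK3 and JDP2 were the only measured members of the arm not called. In the XBP1/ATF6 arm 3 of 10 were lower with SOX2 than with NANOG and 0 higher: SDF2L1 by -0.75 (SE 0.13, adjusted p = 0.00516), PDIA6 by -0.65 (adjusted p = 0.0107) and MANF by -0.53 (adjusted p = 0.0271), where 8.81% of all genes were lower. Without NANOG replicate 1 a total of 12 members were called, and without NANOG replicate 2 a total of 11. Neither count includes ATF4, ATF5, PSAT1, PSPH, PHGDH, MTHFD2, SESN2, MANF or PDIA6, and the second also lacks SDF2L1.

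Against OCT4, 12 of 20 ATF4/CHOP genes were higher with SOX2 and 0 lower, with a median of 0.94, where 6.9% of all genes were called, 3.91% higher and 2.99% lower. The largest differences were in TRIB3 (log2 1.99, SE 0.22, adjusted p = 0.00189), DDIT3 (1.85, SE 0.14, adjusted p = 0.000378) and STC2 (1.48, SE 0.18, adjusted p = 0.00332). CEBPB (1.21), PCK2 (1.35), ATF3 (1.31), PPP1R15A (1.11), SESN2 (1.01), PSPH (0.99), CHAC1 (0.99), SHMT2 (0.86) and CEBPG (0.62) were the others called. SDF2L1 was the only XBP1/ATF6 gene called, lower with SOX2 (-0.61, adjusted p = 0.0248), a call lost without any 1 of the NANOG or OCT4 arrays. Without OCT4 replicate 1 only 4 members were called: TRIB3, DDIT3, CEBPB and STC2. Between NANOG and OCT4, ATF3 (-1.06, SE 0.21, adjusted p = 0.023) and TRIB3 (-0.89, SE 0.22, adjusted p = 0.0455) were lower with NANOG and PDIA6 was higher (0.52, SE 0.13, adjusted p = 0.0461), where 7.16% of all genes were called, 4.32% higher and 2.84% lower. All 3 were lost without any 1 of the NANOG or OCT4 arrays, TRIB3 and PDIA6 also without either control array.

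Genes of the same pathways outside the module were read from 3 lists. The lists were chosen with earlier results of these data known, so their shares are a description and not separate support. Amino acid transporters, many of them known ATF4 targets, rose with SOX2 in 7 of 11 measured and fell in 1, with a median of 0.98, where 6.1% of all genes rose and 5.01% fell. SLC3A2, the heavy chain shared by several amino acid exchangers, read 850 and 983 in control, 663 and 656 with NANOG, 1044 and 1036 with OCT4 and 2364 and 2456 with SOX2. The 4 groups did not overlap, and the rise with SOX2 was 2.72-fold (log2 1.44, SE 0.12, adjusted p = 0.000512), though it did not pass as a mean over all its probes (adjusted p = 0.348). The arginine transporter gene SLC7A1 (1.31), the glycine transporter gene SLC6A9 (1.21), the cystine exchanger gene SLC7A11 (1.08), the leucine exchanger gene SLC7A5 (1.06) and the glutamine transporter gene SLC1A5 (0.98) also rose. The remaining riser, SLC1A4, lay above the filter intensity only on the 2 SOX2 arrays (125 and 150). It was tested only because it was high there, so its call carries no weight of its own. SLC7A3, named after its value was seen as the only one of the list that fell, was at -0.73 (adjusted p = 0.0426) and held with only 1 of the 8 arrays left out, SOX2 replicate 2.

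SLC7A5 set the groups farthest apart, at 1602 and 2842 in control, 883 and 839 with NANOG, 2279 and 2973 with OCT4 and 4650 and 4174 with SOX2. NANOG lay below and SOX2 above every control array. With NANOG 0 transporters rose and 3 fell, where 2.74% of all genes rose and 0.885% fell. The 3 were SLC7A5 (-1.35, SE 0.25, adjusted p = 0.0281), SLC7A3 (-0.98, adjusted p = 0.0297) and the glutamine transporter gene SLC38A1 (-0.81, adjusted p = 0.0488). All 11 lay below zero and the median was -0.45. Each of these 3 calls was lost without either NANOG array, and without control replicate 2, at an adjusted p of up to 0.428. Of the transporters that rose with SOX2, SLC3A2 and SLC6A9 passed with any array left out, and the calls of SLC7A1, SLC7A11, SLC7A5 and SLC1A5 were lost without control replicate 1, those of SLC7A1, SLC7A5 and SLC1A5 also without either NANOG array, that of SLC7A5 without either OCT4 array and that of SLC7A11 without control replicate 2, at an adjusted p of up to 0.142.

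Other genes of the integrated stress response were the remaining eIF2 kinases, the eIF2B subunits and further targets. Of 22 measured of 24, 4 (18.2%) rose with SOX2 and 1 fell, with a median of 0.07, where 6.1% of all genes rose and 5.01% fell. The risers were the growth arrest gene GADD45A (1.01, adjusted p = 0.0131), the eIF2B subunit gene EIF2B2 (0.76), the cysteine synthesis gene CTH (0.68) and the translation repressor gene EIF4EBP1 (0.65), and the lipoprotein receptor gene VLDLR fell by 0.77 (adjusted p = 0.00829). With NANOG 1 fell, VLDLR again (-0.60, adjusted p = 0.0416). With OCT4 0 passed in limma's test, with 2 of 22 at an unadjusted p under 0.05, where 945 of all 12436 genes had one. These 5 calls with SOX2 were all lost without control replicate 1. That of EIF2B2 was also lost without control replicate 2 or either NANOG array, and that of EIF4EBP1 held only without SOX2 replicate 1, at an adjusted p of up to 0.198. The VLDLR call with NANOG held only without 1 of the SOX2 arrays (adjusted p of up to 0.425).

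Other genes of the ER response were chaperones, degradation factors and ATF6 proteases. Of 25 measured of 26, 2 (8%) rose with SOX2 and 0 fell, a share near the 6.1% of all genes, with a median of 0.12: the BiP gene HSPA5, the main ER chaperone, and its cochaperone gene DNAJB11. HSPA5 read 417 and 468 in control, 479 and 509 with NANOG, 570 and 450 with OCT4 and 744 and 588 with SOX2. Its SOX2 arrays were the highest, and the change was 0.63 (SE 0.17, adjusted p = 0.0489), a call that held only without SOX2 replicate 2 among the left-out arrays. HSPA5 also passed in only 4 of the 12 alternative settings. DNAJB11 rose by 0.55 (SE 0.10, adjusted p = 0.0152), and not without control replicate 1 (adjusted p of up to 0.0977). With NANOG 1 rose, the oxidase gene ERO1A (0.60, adjusted p = 0.0488), a call that held only without 1 of the SOX2 arrays. With OCT4 0 passed in limma's test, with 1 of 25 at an unadjusted p under 0.05, where 945 of all 12436 genes had one.

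**Figure D4:**
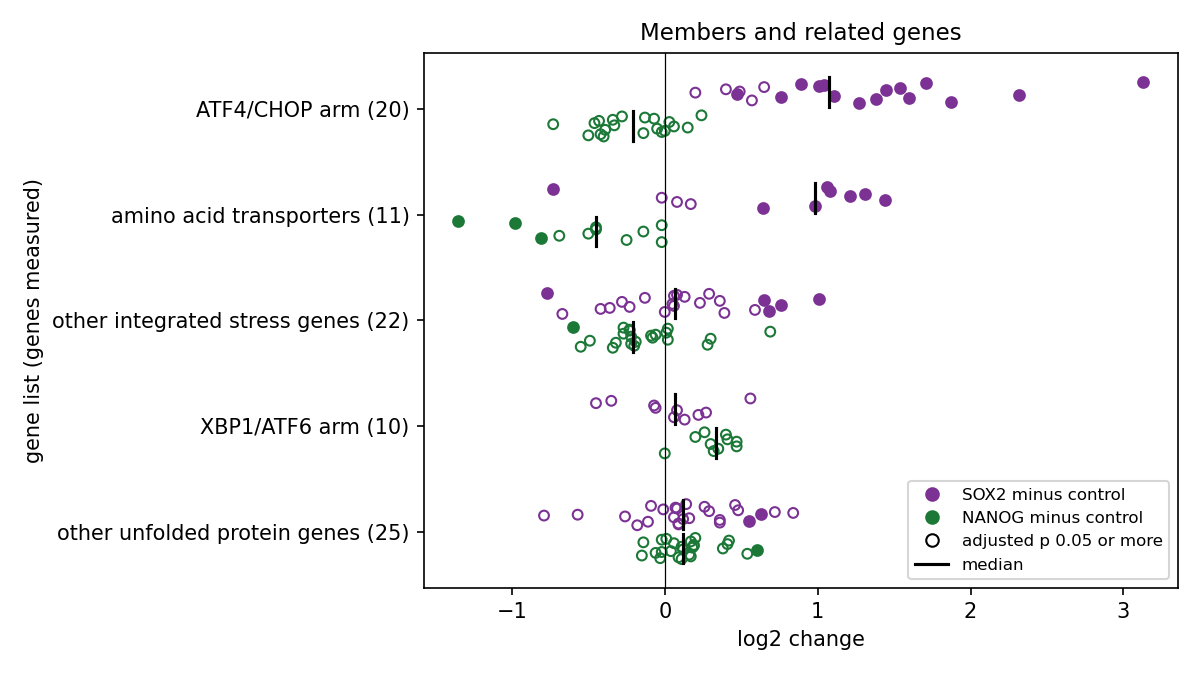
Each circle is the fitted log2 change of 1 gene, for SOX2 against control (purple) and NANOG against control (green), in the 2 arms and the 3 lists of related genes, filled where the adjusted p is under 0.05, with the median as a bar. The SOX2 medians are 1.08 for the ATF4/CHOP arm and 0.98 for amino acid transporters and 0.07 to 0.12 for the other lists.

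TRIB3 served as a reference for the profile of the arm over the 8 arrays, which share a normalization and fall into 4 groups, so the coefficients are descriptions. Pearson's r with TRIB3 was 0.99 for PPP1R15A, 0.98 for CEBPB and 0.96 for DDIT3 and CEBPG, and it was 0.61 to 0.99 over the other 19 measured genes of the arm. In the XBP1/ATF6 arm it ran from -0.79 for PDIA6 to 0.75 for XBP1. Symbols that begin with LOC or hold the letters orf were left out of the next ranking. Outside the lists, the genes most like TRIB3 were GCC1 (0.992), CALCA (0.991), ATP6V0D1 (0.98), ITPK1-AS1 (0.98) and ZNF664 (0.977). CALCA, the calcitonin gene, read 126 and 139 in control, 131 and 130 with NANOG, 147 and 180 with OCT4 and 339 and 296 with SOX2. Its SOX2 arrays were the highest and its OCT4 arrays next, and NANOG lay within the control range.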

How the data were processed

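RNA from 8 samples was measured on Illumina arrays. The authors deposited processed intensity values for 47323 probes, on a linear scale from 86.3 to 22884, and at equal rank they differed by no more than 2.3 between arrays, as quantile normalization leaves them. The software, a name not given in the sources used here, could not be stated. Another deposited table, without normalization, has 16 columns (8 of signal) with names that match no label, and was not used.

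Intensities were background-corrected by normexp with an offset of 50 and taken to log2 in limma 3.58.1 under R 4.3.3, with no further normalization of the deposited values. A probe was kept above 123.66, the 60th percentile, on at least 2 arrays (21828 probes), and the brightest probe by mean stood for a gene (12436 genes). Platform annotation gave 1 symbol for 30113 probes, 30074 of which matched RefSeq. All 8 arrays entered 1 fit (lmFit and eBayes, 4 residual and 4.39 prior degrees of freedom), with two-sided tests adjusted by Benjamini-Hochberg over 12436 genes at 0.05. The median residual SD was 0.139 log2. For a group at or below that intensity on both arrays, its arrays were raised to it and the fold is a bound. With 2 arrays per group, their number limits the precision. No scan or slide batch was known. The procedure was tested on simulated data.

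Members, lists and motifs were chosen with earlier results of these data known, as were the tests. Members past the threshold were named in full, and list genes past it up to 6 per comparison. Alternatives changed the background correction, filter, normalization, probe rule, samples in the fit, array weights, variance prior and replicate block, and left out each array in turn. Promoters were searched with Python 3.11.15 in RefSeq windows of GRCh38.p14.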

Additional observations from a re-analysis of the deposited data

How the results depend on the processing

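With 2 arrays per group, single arrays and the shared spread estimate decide many calls. Leaving out each array in turn moved the number of members called from 15 to between 8 and 18 for SOX2 against control, from 0 to between 0 and 2 for NANOG, from 0 to between 0 and 1 for OCT4, from 21 to between 11 and 22 for SOX2 against NANOG, from 13 to between 4 and 15 for SOX2 against OCT4, and from 3 to between 0 and 14 for NANOG against OCT4. With only the 2 groups compared in the fit, which leaves fewer samples, the counts were 7 for SOX2 against control, 3 for NANOG against control, 4 for SOX2 against OCT4 and 15 for NANOG against OCT4. With array weights they were 3 for NANOG against control, 1 for OCT4 against control (TRIB3) and 16 for NANOG against OCT4. With the filter on all 8 arrays, 1 was called for NANOG against OCT4. The causes of the other moves were not tested. The share of all genes called is not given for these refits or for the replicate block below. The counts therefore describe the fits and are not results about the members.

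The ATF4/CHOP median for SOX2 against control (1.08) was 0.91 with no background correction and 1.33 with an offset of 16, and ran from 1.01 to 1.09 with an array left out. Against NANOG (1.43) it was 1.16 with no background correction, 1.54 with an offset of 16, 1.23 with no filter and 1.25 as a mean over all probes (1.21 to 1.47 with an array left out). Against OCT4 (0.94) it was 0.81 with no background correction and 0.84 as a mean over all probes (0.69 to 1.06). With an array left out it ran from -0.24 to -0.08 for NANOG against control, 0.14 to 0.31 for OCT4 against control and -0.58 to -0.32 for NANOG against OCT4. The XBP1/ATF6 median was 0.03 with no filter for SOX2 against control (0.06 to 0.09 with an array left out), 0.39 with an offset of 16 for NANOG against control (0.29 to 0.37), -0.32 with an offset of 16 for SOX2 against NANOG (-0.27 to -0.19) and 0.22 with cyclic loess for NANOG against OCT4 (0.18 to 0.24), and ran from 0.05 to 0.14 for OCT4 against control. For SOX2 against OCT4 (-0.04; -0.11 to -0.02 with an array left out) it turned to 0.02 with the filter on all 8 arrays, with the filter on the mean and with no filter, so its sign is not settled. Among related genes, PDIA5 turned to 0.39 for SOX2 against control without SOX2 replicate 1 (adjusted p = 0.0369) and was -0.42 without SOX2 replicate 2.

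The labels share replicate numbers, but same-numbered arrays deviated together in only some pairs of groups (correlations of deviations from the group means -0.19 to 0.38), so the numbers were not taken to pair the samples. With the number as a replicate block, 15 members were called for SOX2 against control, 0 for NANOG, 0 for OCT4, 21 for SOX2 against NANOG, 11 for SOX2 against OCT4 and 2 for NANOG against OCT4.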
